A study of Bos taurus with 6 samples.

Results

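The proteasome is the large protease that breaks down proteins tagged with ubiquitin, and the genes described here encode its subunits and the proteins that bind it. They were chosen by name, as genes whose single symbol in the array annotation starts with PSMA, PSMB, PSMC, PSMD, PSME or PSMF, without PSMB8, PSMB9 and PSMB10. This gave 34 of the 9155 named genes, measured by 40 probe sets, of which 6 genes had more than 1. PSME3IP1 is among the 34 by its prefix only, since it encodes a partner of a proteasome cap and not a subunit. PSMA2, PSMA8, PSMB11, PSMD3, PSMD7, PSMD8, PSMD12 and PSME3 were not analysed here. Expression was measured on 6 Affymetrix arrays of bovine articular chondrocytes, the cells of joint cartilage, from metacarpal-phalangeal joints of slaughtered cattle, grown at high density as micromass cultures in medium with little serum. The day after plating, 3 cultures received TGF-β1 at 5 ng/ml and 3 vehicle only (untreated), RNA was taken 8 hours later, and the comparison asked which genes respond to TGF-β. Cells of 3 cows were each cultured in both conditions, but the labels give a replicate number from 1 to 3 and neither the cow nor its age.

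A barrel of stacked rings, the core particle or 20S, holds the active sites inside. Its outer rings are made of alpha subunits (PSMA genes) and its inner rings of beta subunits (PSMB genes), of which PSMB5, PSMB6 and PSMB7 cut peptide bonds. The regulatory particle or 19S caps the barrel. Its base has a ring of ATPases (PSMC genes) that unfold the substrate, and its lid (PSMD genes) removes ubiquitin. Other caps can take its place, among them PA28, which is built from PSME1 and PSME2 and opens the barrel without using ubiquitin or ATP. Interferon-gamma induces PA28 together with PSMB8, PSMB9 and PSMB10, which replace the catalytic subunits in the immunoproteasome and shape peptides for antigen presentation. In cartilage, degradation of SMADs and other signalling proteins by this system is among the ways in which the response to TGF-β is kept in bounds.

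The deposited values are log2 signals, from which the median of the probe set across the 6 arrays had been taken off. A value of 0.5 therefore means 0.5 log2 units above the middle of the 6 arrays, levels of different genes cannot be compared, and the presence of chondrocyte markers could not be checked. As the 2 middle values of each probe set average 0, values close to 0 on a pair of arrays follow from the centring. The arrays had medians of -0.013 to 0.020, and spike-in controls (18 probe sets of added bacterial and phage transcripts) were bright on 1 of them, TGF-β replicate 2, with a median of 1.53 against -0.17 to 0.060 elsewhere. As a check of the treatment, all 5 measured genes of a list of known targets rose, with TGFBI, which encodes a secreted adhesion protein, at 3.39 log2 units. Of 9 measured markers of other cell types, limma called 0 at an adjusted p under 0.05. At an unadjusted p under 0.05, 2 were higher (CD68 at 0.28 and ADIPOQ at 0.34 log2 units) and 0 lower. Over all genes, 8.41% were higher and 14.1% lower at this level. In these bulk cultures, fewer cells of a kind and less RNA per cell cannot be told apart.

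Of the 26 measured subunits of the core and regulatory particles within the name rule, 0 passed the test between TGF-β and untreated cultures. Their differences ran from -0.26 (PSMD4) to 0.21 (PSMB3) log2 units, and their 95% intervals reached from -0.63 to 0.43. The PA28 cap genes PSME1 and PSME2 fell, to 1.33-fold and 1.34-fold lower values. Of the 34 genes, 0 rose and 2 fell in limma's paired fit, which takes the replicate number into account (Benjamini-Hochberg adjusted p under 0.05 over all genes). At an unadjusted p under 0.05, 0 were higher (8.41% of all genes) and 3 lower (PSME1, PSME2 and PSMD5; 14.1% of all genes). Over all 9155 genes, 2.24% rose and 4.58% fell, so that the counts among the proteasome genes lie near the background. The median difference over the 34 genes was 0.0087 log2 units (0.029, -0.12 and 0.047 in replicates 1, 2 and 3), against -0.0096 over all genes. Differences ran from -0.42 for PSME2 to 0.23 for PSMD10. All 3 replicates were higher with TGF-β in 9 of the 34 genes (19.8% of all genes) and lower in 7 (24.4% of all genes). The 95% interval of the difference lay within 0.5 log2 units of 0 in 26 of the 34, against 75.2% of all genes, and the 8 exceptions were PSMA3, PSMD4, PSMD5, PSMD10, PSMD13, PSME1, PSME2 and PSMF1. For the other 32 genes the test was not passed, which does not show that they were unaffected.

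**Figure D1:**
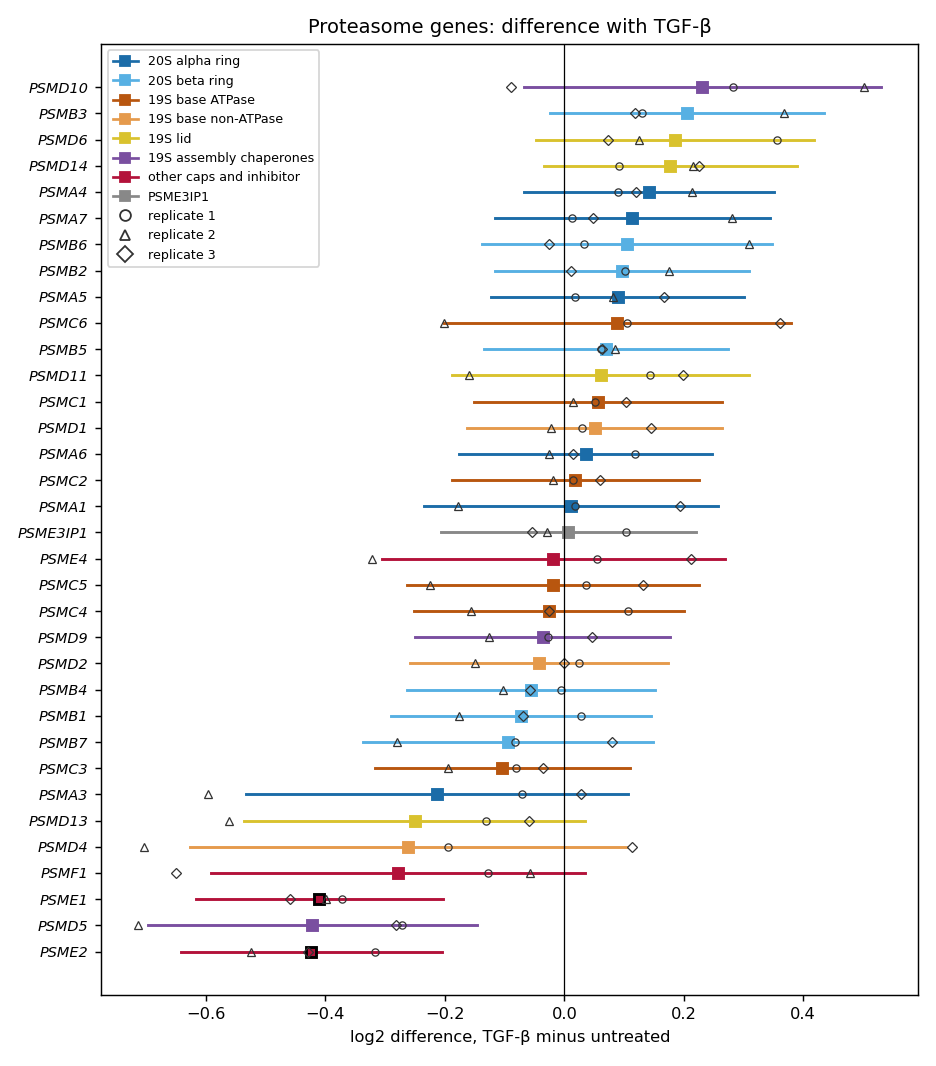
Log2 difference, TGF-β minus untreated, of the 34 proteasome genes (vertical axis), with the mean of 3 pairs (squares, black edge where the adjusted p was under 0.05), its 95% interval from limma's paired fit (lines) and each replicate (open symbols); colour gives the place in the proteasome. PSME1 and PSME2, with black edges, lie at -0.41 and -0.42, and every other interval crosses 0 except that of PSMD5.

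Among the subunits of the core particle, 0 of 6 alpha genes and 0 of 7 beta genes passed the test in either direction. Their median differences were 0.062 and 0.069 log2 units. PSMA4, an alpha subunit, read -0.045, -0.77 and 0.20 in untreated replicates 1, 2 and 3 and 0.045, -0.55 and 0.32 with TGF-β. Its difference of 0.14 (SE 0.0887) was the highest of the alpha genes and had the same sign in each replicate, while the values of a group spread over far more than this difference. PSMA3 had the lowest, -0.21 (adjusted p = 0.419), of which replicate 2 alone contributed -0.60 against -0.071 and 0.028 in the others. PSMA1 (0.011), PSMA6 (0.036), PSMA5 (0.089) and PSMA7 (0.11) lay between them.

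The 3 catalytic beta subunits did not pass the test. PSMB5, the chymotrypsin-like subunit, read -0.031, -0.42 and 0.24 in the untreated cultures and 0.031, -0.34 and 0.31 with TGF-β. The replicate differences of 0.061, 0.084 and 0.063 hardly varied, and the mean was 0.069 (95% interval -0.14 to 0.27, adjusted p = 0.698). PSMB6, the caspase-like subunit, read -0.016, -0.34 and 0.22 untreated and 0.016, -0.035 and 0.19 with TGF-β. Its difference was 0.11 (95% interval -0.14 to 0.35, adjusted p = 0.612), most of it from replicate 2. PSMB7, the trypsin-like subunit, read 0.041, -0.23 and 0.34 untreated and -0.041, -0.51 and 0.42 with TGF-β, so that 2 replicates were lower and 1 higher. Its difference was -0.094 (95% interval -0.34 to 0.15, adjusted p = 0.651). Among the structural beta subunits, PSMB3 had the highest difference of the whole core particle. It read -0.065, -0.52 and 0.083 untreated and 0.065, -0.15 and 0.20 with TGF-β, which is higher in each replicate, with a mean difference of 0.21 (SE 0.0968, adjusted p = 0.273). PSMB2 had a difference of 0.097, PSMB4 of -0.056 and PSMB1 of -0.073.

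In the regulatory particle, 0 of 6 ATPases, 0 of 3 other base subunits and 0 of 4 lid subunits within the name rule passed the test. The ATPases PSMC1 to PSMC6 had differences of -0.10 (PSMC3) to 0.089 (PSMC6). PSMC5 has 2 probe sets that differed in sign, with 0.14 and -0.18, and so do PSMC2, with 0.14 and -0.11, and PSMC6, with -0.0080 and 0.19. None of these probe sets passed limma's test. In the lid, PSMD14, the subunit that cuts ubiquitin chains off the substrate, read -0.046, -0.35 and 0.10 in the untreated cultures and 0.046, -0.14 and 0.33 with TGF-β. It was higher in each replicate (difference 0.18, SE 0.0895, adjusted p = 0.304). PSMD6 read -0.25, -0.084 and 0.092 untreated and 0.11, 0.040 and 0.17 with TGF-β, with the 2 groups overlapping. Its difference was 0.18 (SE 0.0982, adjusted p = 0.332). These values average 2 probe sets, both higher on the mean (0.23 and 0.14), that differed in the order of replicates. The first was highest in replicate 2 and read -0.11 untreated and -0.16 with TGF-β in replicate 3. The second was lowest in replicate 2 and read 0.30 and 0.49 in replicate 3. PSMD13 (-0.25, adjusted p = 0.283) was lower in each replicate, and PSMD11 had 0.061. Of the base subunits that are no ATPases, the ubiquitin receptor PSMD4 had -0.26 (adjusted p = 0.385), with replicate differences of -0.19, -0.70 and 0.11, and the scaffold subunits PSMD1 and PSMD2 had 0.051 and -0.042.

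The 3 chaperones that help the base assemble, PSMD5, PSMD9 and PSMD10, spread widely and did not pass the test. PSMD5 read 0.47, -0.037 and 0.037 in untreated replicates 1, 2 and 3 and 0.20, -0.75 and -0.25 with TGF-β. It was lower in each replicate, by -0.27, -0.71 and -0.28, with a mean of -0.42 (SE 0.116, adjusted p = 0.0836), which is as low as the mean of PSME2 with a larger spread between replicates. PSMD10, also known as gankyrin, read -0.40, -0.38 and 1.74 untreated and -0.12, 0.12 and 1.65 with TGF-β. Its difference was 0.23 (SE 0.127, adjusted p = 0.345), with replicate 3 lower by -0.090 where the others were higher. PSMD9 had -0.037.

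The genes that fell were those of PA28. PSME1, which encodes its alpha subunit, read 0.19, 0.032 and 0.43 in the untreated cultures and -0.19, -0.37 and -0.032 with TGF-β. All 3 TGF-β arrays lay below all 3 untreated arrays, which held for 1 of the 34 genes and 5.83% of all genes, while the reverse held for 0 of the 34 and 5.05% of all genes. The difference was -0.41 (SE 0.0875, n = 3 pairs, adjusted p = 0.0395), or 1.33-fold lower, with replicate differences of -0.37, -0.40 and -0.46. PSME2, which encodes the beta subunit, read 0.47, -0.13 and 0.13 untreated and 0.15, -0.65 and -0.30 with TGF-β. Here the groups overlapped, but each TGF-β culture lay below the untreated culture of its number, by -0.32, -0.53 and -0.43. The mean was -0.42 (SE 0.0923, n = 3 pairs, adjusted p = 0.0421), or 1.34-fold lower. The 2 genes have 1 gene between them in the reference annotation (ARS-UCD2.0), and each was measured by 1 probe set.

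Both calls stood close to the threshold and needed all 3 pairs. Without replicate 1, 2 or 3, the paired fit gave PSME1 adjusted p = 0.143, 0.121 and 0.140 and PSME2 adjusted p = 0.110, 0.152 and 0.125, with differences of -0.39 to -0.43 and -0.37 to -0.48. Without pairing, limma gave adjusted p = 0.798 and 0.999, and with pairing after quantile normalization 0.0698 and 0.0598.

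The other caps and the inhibitor did not pass the test. PSMF1, which encodes the inhibitor PI31, read 0.14, 0.046 and -0.19 in the untreated cultures and 0.012, -0.012 and -0.84 with TGF-β. It was lower in each replicate, but by -0.65 in replicate 3 against -0.13 and -0.058 in the others, and the mean of -0.28 had an adjusted p of 0.277. PSME4, which encodes the cap PA200, had -0.018. PSME3IP1 had 0.0066 and the smallest range between replicates of all 34 genes (0.0944).

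The immunoproteasome genes, which share with PA28 the induction by interferon-gamma, did not pass the test (0 of 3 in limma's paired fit). At an unadjusted p under 0.05, 0 were higher (8.41% of all genes) and 2 lower (PSMB8 and PSMB10, against 14.1% of all genes). PSMB8 read 0.040, 0.33 and -0.040 untreated and -0.20, 0.14 and -0.26 with TGF-β. It was lower in each replicate by -0.24, -0.19 and -0.22, with a mean of -0.22 (adjusted p = 0.199). PSMB10 read 0.25, -0.13 and 0.56 untreated and -0.50, -0.11 and 0.11 with TGF-β. It had -0.39 (adjusted p = 0.174), with replicate differences of -0.74, 0.020 and -0.46. PSMB9 had -0.11 (adjusted p = 0.595), and its arrays differed far more between replicates, from -0.50 to 0.81, than within them.

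**Figure D2:**
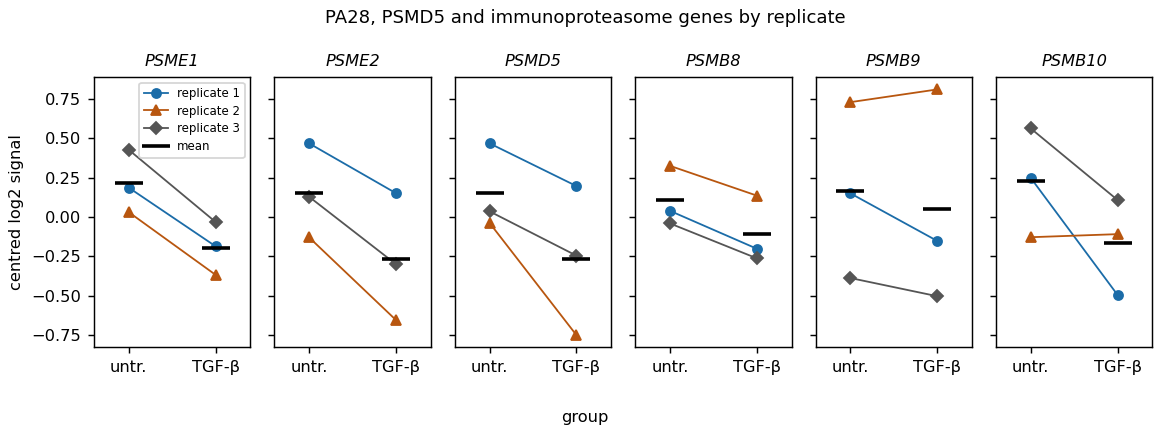
Centred log2 signal (vertical axis) of PSME1, PSME2, PSMD5 and the immunoproteasome genes PSMB8, PSMB9 and PSMB10 in untreated (untr.) and TGF-β cultures, with a line for each replicate and bars for the group means. Every line falls from left to right in the first 4 genes, and in PSMB9 and PSMB10 that of replicate 2 does not.

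For each gene, the range between the 3 replicates was taken with both arrays of a number averaged. It exceeded the size of the TGF-β difference in 33 of the 34 genes (84.3% of all genes), all but PSME1. A range over 3 values and a mean difference are unlike measures, so this does not rank replicates against treatment. Most of the genes had the same order of replicates. Replicate 3 was highest in 27 of the 34, against 39.4% of all genes, and replicate 2 lowest in 29, against 35.5%. In 20 of the 34, replicate 2 was lowest and replicate 3 highest in the untreated and in the TGF-β group alike, which held for 13.4% of all genes. The medians over the 34 genes were -0.013, -0.18 and 0.16 in untreated replicates 1, 2 and 3 and 0.017, -0.32 and 0.21 with TGF-β, where the medians of all genes lay between -0.011 and 0.0084. In replicate 3, all 6 alpha genes lay above 0 on both arrays. Of all 9155 genes, 4725 lay above 0 on its untreated array and 4805 on its TGF-β array. These counts describe 3 cultures per group and were not tested.

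**Figure D3:**
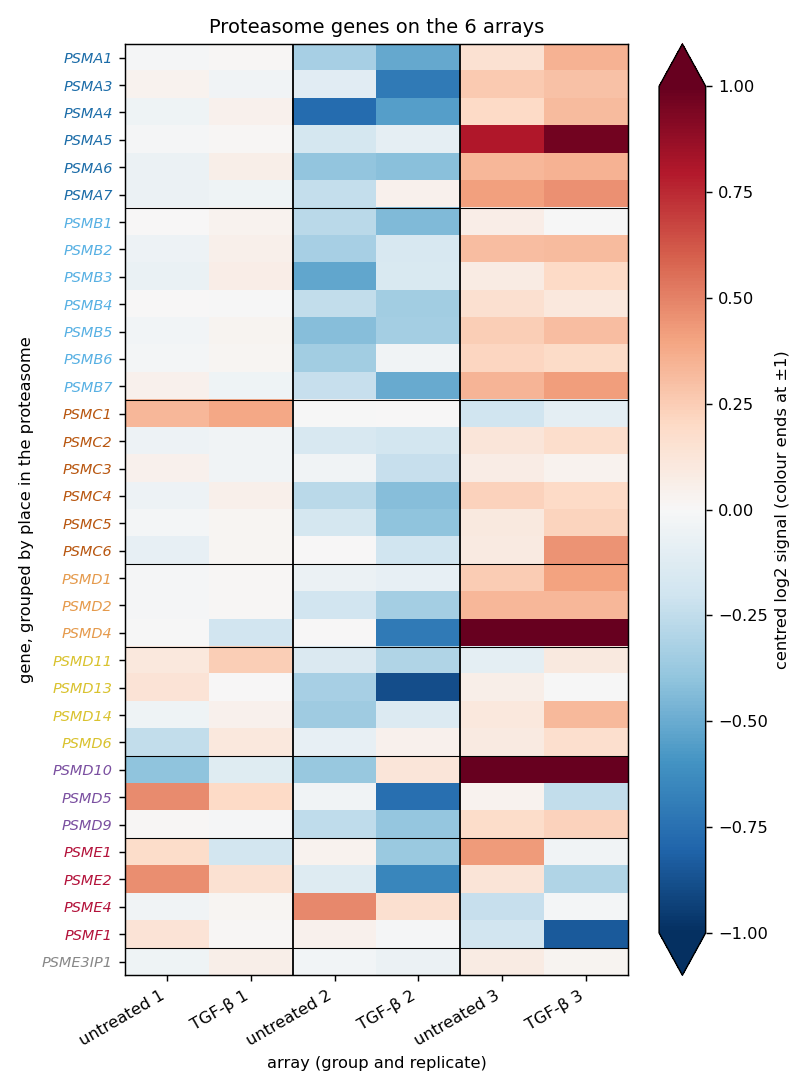
Centred log2 signal of the 34 proteasome genes (rows, grouped by place in the proteasome and coloured by it) on the 6 arrays (columns, untreated and TGF-β side by side for each replicate), in colours that end at -1 and 1. Most rows are blue in replicate 2 and red in replicate 3, and PSMC1, PSMD5, PSME2, PSME4 and PSMF1 are among those that are not.

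Some genes stood far above the others in replicate 3. The arrays of this replicate also had the widest spread over all probe sets. Their standard deviations were 0.47 (untreated) and 0.44 (TGF-β), against 0.23 to 0.33 on the other arrays. PSMD10 in untreated replicate 3 was 2.13 log2 units above the mean of replicates 1 and 2, and 1.65 with TGF-β. PSMD4 read -0.00043, 0.00043 and 1.10 in the untreated cultures and -0.19, -0.70 and 1.21 with TGF-β. Both of its probe sets had this pattern, with 1.17 and 1.03 on the untreated array of replicate 3 and 1.34 and 1.09 on its TGF-β array. PSMA5 read -0.0089, -0.17 and 0.80 untreated and 0.0089, -0.091 and 0.96 with TGF-β. Genes of the cell cycle were also high in replicate 3. All 21 measured lay above 0 on both of its arrays, against 4725 and 4805 of the 9155 genes. The cell cycle medians were 2.30 and 2.10, against -0.29 to -0.041 on the other arrays. Chondrocyte markers were high in replicate 2, where the proteasome genes were low. All 8 measured lay above 0 on both of its arrays, against 4217 and 4471 of the 9155 genes. The marker medians were 0.43 and 0.55, against -0.27 to -0.095 on the other arrays. The medians of the 9 markers of other cells lay between -0.075 and 0.053 on the 6 arrays, but single markers stood out in different replicates. COL10A1, the collagen of hypertrophic cartilage, read 1.86 and 1.81 in replicate 3 and -0.83 to 0.063 elsewhere. CD68 and CD14 were high in replicate 1 instead. CD68 read 1.38 untreated and 1.47 with TGF-β there and -0.37 to 0.019 elsewhere, and CD14 read 1.19 and 1.18 there and -0.55 to 0.052 elsewhere. The part of these genes in the proteasome values was not tested. Against the general order, the ATPase gene PSMC1 read 0.33, -0.0075 and -0.20 in the untreated cultures and 0.38, 0.0075 and -0.10 with TGF-β, highest in replicate 1.

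**Figure D4:**
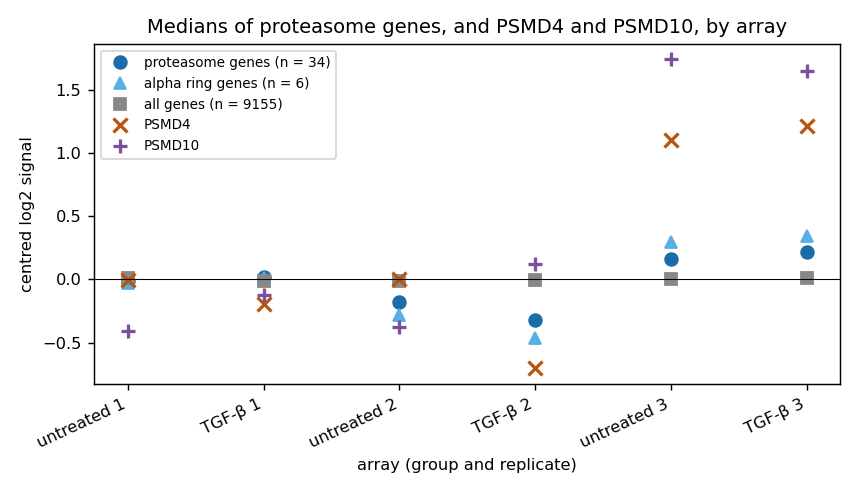
Median centred log2 signal (vertical axis) of the 34 proteasome genes, the 6 alpha ring genes and all 9155 genes, with PSMD4 and PSMD10, on each array. The proteasome medians lie at -0.18 and -0.32 in replicate 2 and at 0.16 and 0.21 in replicate 3, with all genes near 0 throughout, and PSMD4 and PSMD10 exceed 1 in replicate 3.

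Replicate 2 also differed from the other pairs in its difference between the groups. With TGF-β, 23 of the 34 genes were lower in replicate 2, against 11 and 13 in replicates 1 and 3. Over all genes, 49.6% were lower in replicate 2, 54.0% in replicate 1 and 52.8% in replicate 3. A difference of more than 0.5 log2 units was seen in 6 of the 34 in replicate 2, against 0 and 1 in replicates 1 and 3. Replicate 2 also had the most such genes over all genes, with 12.6% against 7.55% in replicate 1 and 9.92% in replicate 3. The TGF-β array of this replicate is the one with the bright spike-in controls, whose part in these values was not tested. Without replicate 2, the median over the 34 genes was 0.039 log2 units, and 0 rose (0.983% of all genes) and 0 fell (1.22%). At an unadjusted p under 0.05, 0 of the 34 were higher and 4 lower, against 613 and 1100 of the 9155 genes (18.7% in either direction), so that the count of lower genes is at the background.

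Further lists of 10, 9, 5 and 7 measured genes hold genes that act with the proteasome but lie outside the name rule. In these lists 1 gene rose and 0 fell, near the 2.24% and 4.58% of all genes. Of 10 measured helpers of the core and regulatory particles, with the base subunit ADRM1 counted among them, 0 passed limma's test. At an unadjusted p under 0.05, 0 were higher and 1 lower (PAAF1), against 8.41% and 14.1% of all genes. POMP, which encodes the chaperone that matures the core particle, had 0.17 (adjusted p = 0.325), ADRM1, which encodes a ubiquitin receptor of the base, had 0.12 (adjusted p = 0.490), and PAAF1, whose product keeps free ATPase subunits from the core, had -0.37 (adjusted p = 0.172). Of 9 measured genes for VCP, which extracts tagged proteins from complexes, and for shuttle factors that bring them to the proteasome, 0 passed limma's test and 0 had an unadjusted p under 0.05, with differences of -0.19 (FAF2) to 0.12 (UBQLN1).

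Of 5 measured genes that regulate transcription of proteasome genes, 0 passed limma's test. At an unadjusted p under 0.05, 1 was higher (MAFG, 0.25) and 1 lower (NFE2L1), against 8.41% and 14.1% of all genes. NFE2L1, whose product raises transcription of proteasome genes when the proteasome fails, read 0.28, 0.37 and -0.43 in the untreated cultures and 0.074, -0.074 and -0.76 with TGF-β. It was lower in each replicate, with a mean difference of -0.33 (SE 0.0939, adjusted p = 0.0929). Unlike in most subunits, replicate 3 was lowest in both groups.

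Of 7 measured genes of ubiquitin supply and transfer, 1 rose and 0 fell, against 2.24% and 4.58% of all genes. At an unadjusted p under 0.05 in limma's paired fit, UBE2S was higher and UBA1 lower, against 8.41% and 14.1% of all genes. UBE2S encodes a conjugating enzyme that lengthens ubiquitin chains for the anaphase-promoting complex. It read -0.48, -0.41 and -0.12 in the untreated cultures and 0.29, 0.12 and 0.39 with TGF-β, higher without overlap (5.05% of all genes). The difference was 0.60 (SE 0.0974, n = 3 pairs, adjusted p = 0.0170). Limma did not call it without pairing (adjusted p = 0.470), after quantile normalization (0.0502) or without replicate 1 (0.0860) or 2 (0.0656). UBA1, which encodes the enzyme that activates ubiquitin, had -0.32 (adjusted p = 0.163) and was lower without overlap (5.83% of all genes).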

How the data were processed

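The deposited values are log2 signals that the authors made in GeneSpring with Robust Multichip Average from Affymetrix GeneChip Bovine Genome arrays of two-cycle amplified RNA; software versions are not given in the sources used here. Every probe set is centred on its median over the 6 arrays, so dim probe sets could not be filtered, and precision is limited by 3 arrays per group. Of 24128 probe sets, 112 controls were left out. Symbols came from the platform annotation (13292 probe sets with 1, 86 with several, 10638 with none) and 13263 were updated by Entrez ID. Probe sets were averaged per gene.

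Differences were tested with limma 3.58.1 (R 4.3.3; lmFit, eBayes with the default prior, 2-sided, Benjamini-Hochberg at 0.05 over 9155 genes), with the replicate number as a block; without it, and with the methods' t-test, as alternatives. After removal of group means, arrays that share a number correlated (r = 0.740, 0.694 and 0.845 across probe sets; -0.683 to 0.185 for other numbers). On simulated data with a spread drawn from limma's prior, the fit recovered 27.2% of changes of 0.5 log2 units and 95.8% of changes of 1. Of its calls there, 4.4% were false. The simulation changed 200 of 9155 genes, and 205 rose and 419 fell in the data, so these shares need not hold here. Changes under 0.5 log2 units, as seen in the proteasome genes, were not simulated and may mostly be missed. Members and lists were chosen with earlier results of these data known. Members named with values on every array are those called, the 4 with the largest increase and decrease, and PSMB5, PSMB6 and PSMB7; PSMA4, PSMA5, PSMC1 and PSMD4 were added after their values were seen. Of the lists, members called and NFE2L1, POMP, ADRM1 and the immunoproteasome genes were to be named. CD68, CD14, ADIPOQ, COL10A1, MAFG, PAAF1, FAF2, UBQLN1 and UBA1 were added after their values were seen. Chondrocyte markers (1 rose, 2 fell and 5 of 8 did not pass) and cell cycle genes (MCM4, at -0.60, fell and 20 of 21 did not pass) were also read. Over all genes, 2.24% rose and 4.58% fell. The median difference of the cell cycle genes was -0.18 log2 units, against -0.0096 over all genes. With TGF-β, 5 of the 21 were higher, against 4400 of the 9155 genes. A planned search of promoters was not run. Figures were drawn with matplotlib 3.10.9.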

Additional observations from a re-analysis of the deposited data

Results flagged for a closer look

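The spike-in controls, which no comparison used, had a median of 1.53 log2 units over 18 probe sets on the TGF-β array of replicate 2, above the -0.17 to 0.060 of the untreated arrays.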

How the results depend on the processing

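In the paired fit, 205 genes rose and 419 fell, with 0 and 2 of the proteasome genes. Shifting arrays to a median of 0, the median over probe sets, leaving out shared probe sets and the robust prior kept both proteasome calls. These were lost (0 fell) after quantile normalization (127 genes rose and 196 fell; adjusted p = 0.0698 for PSME1 and 0.0598 for PSME2), on single probe sets (585 and 832; 0.0569 and 0.0566) and without any replicate (90 to 161 and 112 to 270). With no replicate block, limma called 0 genes (209 higher and 326 lower at an unadjusted p under 0.05; 0 and 1 of the proteasome genes), as did the methods' t-test (187 and 219; 0 and 0), and 0 were called without any single array. The cause of each loss was not tested. The median over the proteasome genes was -0.036 to 0.039 log2 units without 1 pair. On the groups alone it was -0.12 without untreated replicate 2, 0.14 without TGF-β replicate 2 and -0.14 without TGF-β replicate 3. There, single arrays turned the sign of PSMD10 (-0.13, -0.12 and -0.32 without untreated replicate 1 or 2 or TGF-β replicate 3), PSMB5 (-0.11 and -0.084 without untreated replicate 2 or TGF-β replicate 3), PSMB6 (-0.043 without untreated replicate 2), PSMB7 (0.050 without untreated replicate 3 and 0.14 without TGF-β replicate 2) and PSMF1 (0.0013 without TGF-β replicate 3). Outside the rule, so did ADRM1 (-0.038 without untreated replicate 2) and PSMB9 (0.17 and 0.16 without untreated replicate 2 or TGF-β replicate 3). Of the other values of named genes, 257 kept direction and call, and 37, of PSME1, PSME2 and UBE2S, lost the call. Without PSME3IP1 (chosen after seeing the data), 0 rose, 2 fell and the median was 0.011. Leaving out PSMC3IP was planned, but it was not among the named genes.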
